A study of Mus musculus with 11 samples.

Results

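The 10 genes described here are Flt3, the STAT5 genes Stat5a and Stat5b, and 7 known targets of FLT3-ITD and STAT5 signalling, Pim1, Pim2, Socs1, Socs2, Socs3, Cish and Osm. They were taken by symbol from the 53700 genes of a table of read counts, and all 10 were found and passed the filter on low counts. Bulk RNA-seq was made from short-term haematopoietic stem cells (ST-HSCs) that had been sorted from mouse bone marrow. Every host mouse had received marrow of an acute myeloid leukaemia with the Flt3-ITD allele and a knockout of TET2, so all groups share both alleles.

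The groups differ in the host's genotype and in treatment. There were 3 KO treated libraries (257, 263 and 276), 3 WT treated libraries (252, 262 and 266), 2 KO vehicle libraries (249 and 275) and 3 WT vehicle libraries (240, 253 and 265). KO stands for CXCL12 KO hosts, titled Cre_pos, and WT for CXCL12 WT hosts, titled Cre_neg. CXCL12 is a chemokine that holds blood stem cells in their marrow niche, and its deletion was in the host, not in the transplanted cells. Treated mice received cytarabine, doxorubicin and quizartinib together, so the effect of quizartinib, the FLT3 inhibitor, cannot be told apart from that of the other drugs. The promoter of the Cre, the mice's age and the doses are not given in the labels used here, and an effect of Cre itself cannot be told apart from one of the loss of CXCL12. The labels do not say that each library is a separate mouse, so p-values measure the spread between these libraries. Counts per gene do not separate the Flt3-ITD allele from the normal one, or donor from host RNA.

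FLT3 is a receptor tyrosine kinase of early blood progenitors that is switched on by FLT3 ligand. The internal tandem duplication (ITD) leaves it active without ligand, and the mutant receptor, unlike the normal one, strongly activates STAT5. Phosphorylated STAT5 enters the nucleus, binds sites of the form TTCNNNGAA, and raises transcription of its own inhibitors (CISH and the SOCS proteins), of the PIM survival kinases and of the cytokine oncostatin M. The mRNA of these targets is therefore often used as a readout of FLT3 inhibition, while STAT5 itself is controlled mainly by phosphorylation, which RNA counts do not show.

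The STAT5 site can be seen in the start regions of 2 of the genes. RefSeq start windows (GRCm38.p6, from 250 bases before to 50 after an annotated start) were available for 8 of the 10 genes, in 11 windows. The motif TTCNNNGAA, which reads the same on both strands, lay in 1 window each of Cish and Socs3. Among all 32851 windows of that length, 8.30% held at least 1 match and 0.457% held at least 2, as the Cish window did. The matches are shown because no other window of the 10 genes held one. CISH and SOCS3 are also textbook STAT5 and STAT targets. The motif is in capitals, and each sequence runs 5′ to 3′ on the gene's own strand.
Cish, chr9:107296654-107296683 (+): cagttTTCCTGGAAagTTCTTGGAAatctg
Socs3, chr11:117969501-117969530 (-): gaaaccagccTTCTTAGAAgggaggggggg
In Cish the matches begin 0 and 11 bases after the annotated start, and in Socs3 the match begins at position -154. A match of letters is a description and not a bound site.

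Libraries held 8.13 to 31.1 M gene counts, and levels below are in CPM, the count of a gene per M counts of its library, with library sizes scaled by TMM. WT vehicle 253 and 265 stood apart from the other 9 libraries on the first and second principal components (31.8% and 16.9% of the variance). Libraries also differed in how counts went with transcript length. The rank correlation across genes of a gene's deviation from its mean with its transcript length was -0.22 in KO treated 257 and -0.29, -0.40 and -0.34 in the WT treated libraries, against 0.023 to 0.36 in the other 7. Of the markers of the ST-HSC gate, Kit, Cd34 and Cd48 were counted in every library. Kit averaged 158 ± 120, 36.3 ± 15.1, 163 ± 5.88 and 85.1 ± 15.2 CPM in KO treated, WT treated, KO vehicle and WT vehicle libraries, and Ly6a (Sca-1) was at 1.11 CPM in WT vehicle 253. Slamf1, which many ST-HSC gates exclude, was at 4.16 CPM or less in each library. Cxcl12 was at 14.4 CPM in 1 WT vehicle library and at 5.36 CPM or less in the others, so it gives no check of the deletion in the hosts. Tet2 was counted in all 11 libraries, at 2.99 to 28.7 CPM.

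No gene among the 10 passed the test in any comparison. In edgeR's quasi-likelihood test with Benjamini-Hochberg adjustment over 16639 genes, 0 of the 10 had an adjusted p under 0.05, against a background of 0% of all genes in each of the 7 comparisons. In the comparisons of a pair of groups, those with an unadjusted p under 0.05 were Stat5b in KO against WT treated hosts, Stat5a and Stat5b in WT treated against WT vehicle hosts, and Pim1 in KO treated against KO vehicle hosts. The lowest adjusted p of the 10 was 0.172, for Stat5a in WT treated against WT vehicle hosts. With other tools some passed, as given below. Fold changes are printed where they are larger than their own standard error (SE), and for Flt3, the target of quizartinib. With bulk libraries, fewer cells of a type and less RNA per cell cannot be told apart.

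**Figure D1:**
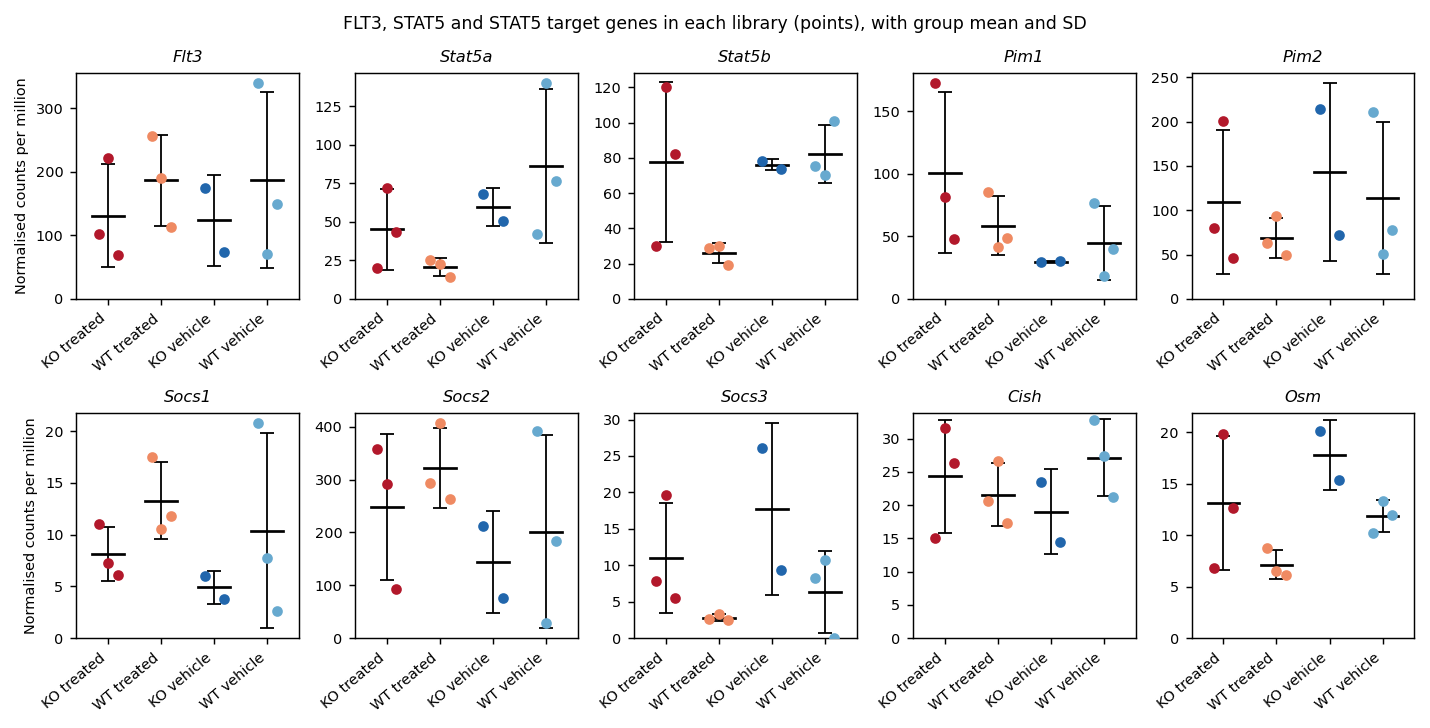
Normalised counts (CPM) of the 10 genes in each library (points), with the mean (line) and SD (bars) of each group of 2 or 3 libraries; KO and WT are CXCL12 KO and WT hosts, treated or vehicle. The 3 WT treated libraries sit at 19.3 to 29.8 CPM of Stat5b, under every other library, while all groups overlap for Flt3, Pim2 and Cish.

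Flt3 (ENSMUSG00000042817.16), the receptor itself, was among the more abundant of the 10 genes and did not separate the groups. It was at 102, 222 and 68.5 CPM in KO treated libraries and 255, 190 and 113 CPM in WT treated libraries. Vehicle libraries had 174 and 72.9 CPM in KO hosts, against 340, 70.6 and 148 CPM in WT hosts. Every pair of groups overlapped. The SD within a group was 80.5 CPM in KO treated, 71.3 CPM in WT treated, 71.8 CPM in KO vehicle and 139 CPM in WT vehicle libraries, around means of 131, 186, 124 and 186 CPM. Averaged over both niches, the difference between treated and vehicle libraries was 0.04 ± 0.45 on the log2 scale (edgeR, adjusted p = 0.982), with a 95% interval of -1.03 to 1.11. Averaged over both treatments, KO hosts differed from WT hosts by -0.55 ± 0.46 (adjusted p = 0.658), and by -0.17 without WT vehicle 240. The ligand gene Flt3l averaged 2.72 ± 1.92 CPM in KO treated, 1.499 ± 0.753 CPM in WT treated, 1.96 ± 1.73 CPM in KO vehicle and 1.89 ± 1.57 CPM in WT vehicle libraries (SD).

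Stat5a (ENSMUSG00000004043.15) and Stat5b (ENSMUSG00000020919.12) encode the closely related transcription factors that FLT3-ITD activates. They were lowest in WT treated libraries, and this was the clearest pattern among the 10 genes. Stat5b was at 30.1, 120 and 82.3 CPM in KO treated libraries, against 28.6, 29.8 and 19.3 CPM in WT treated libraries. Each KO treated library was above each WT treated library, but 257 only by 0.231 CPM. Vehicle libraries had 78.5 and 73.9 CPM in KO hosts, against 75.5, 70.1 and 101 CPM in WT hosts, and these overlapped. The group means were 77.6 ± 45.3 in KO treated, 25.9 ± 5.78 in WT treated, 76.2 ± 3.22 in KO vehicle and 82.2 ± 16.6 in WT vehicle (SD, n = 3, 3, 2 and 3).

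Stat5a was at 19.9, 72.1 and 43.5 CPM in KO treated libraries, against 25.3, 22.9 and 13.8 CPM in WT treated libraries. Here KO treated 257 lay inside the WT treated range, so the groups overlapped. Vehicle libraries had 68.2 and 50.8 CPM in KO hosts, against 41.9, 140 and 76.7 CPM in WT hosts. All 5 vehicle libraries were above the 3 WT treated ones. Reads of near-identical stretches of Stat5a and Stat5b can be set aside or counted for either gene, so their split is less certain than their sum. Stat5a counts were 0.529 to 0.884 times Stat5b counts in 10 of the 11 libraries, and only in WT vehicle 253 were there more Stat5a than Stat5b counts.

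In WT hosts, treated libraries differed from vehicle libraries by -2.06 ± 0.54 for Stat5a and by -1.67 ± 0.44 for Stat5b on the log2 scale. The adjusted p were 0.172 and 0.173 in edgeR. In all 3 treated libraries both genes were below every vehicle library, as was Osm. That is 3 of the 10 genes lower without overlap, against 10.1% of all genes tested. The 2 STAT5 genes also had an unadjusted p under 0.05, which 18.2% of all genes had. With DESeq2 both had adjusted p under 0.05 (0.00988 for Stat5a and 0.0128 for Stat5b), against 7.25% of the genes it tested. With limma voom and quality weights neither did (0.127 and 0.0842), and nor did any gene (0%). Without WT vehicle 253 and 265, which leaves 240 as the lone vehicle library, the change was -0.91 for Stat5a (adjusted p = 0.615) and -1.43 for Stat5b (adjusted p = 0.575).

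Between treated hosts, KO libraries differed from WT libraries by 1.58 ± 0.44 for Stat5b (edgeR, adjusted p = 0.383) and by 1.13 ± 0.52 for Stat5a (edgeR, adjusted p = 0.478). Only Stat5b of the 10 had an unadjusted p under 0.05, which 10.6% of all genes had. Stat5b and Socs3 were higher in KO treated libraries without overlap, 2 of 10 genes against 9.71% of all genes. DESeq2 called Stat5b (adjusted p = 0.0420), against 2.46% of its genes, and voom called Stat5a, Stat5b, Socs3 and Osm (adjusted p = 0.00852, 0.00167, 0.0448 and 0.0161), against 26.3% of all genes. Without KO treated 257 Stat5b was 1.97 higher and passed in edgeR (adjusted p = 0.00886), as did 1513 of the 16341 genes tested. Without KO treated 263 Stat5a was 0.63 higher. Removal of the trend with transcript length moved the difference to 0.87 for Stat5b and 0.54 for Stat5a (both with adjusted p = 1). This comparison and the one before it share the WT treated libraries and so are not independent.

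In the vehicle hosts and in the KO niche the STAT5 genes differed by less than their SE. The difference of the treatment effects between niches, KO minus WT, was 1.69 ± 0.66 for Stat5b (edgeR, adjusted p = 0.767) and 1.66 ± 0.79 for Stat5a (edgeR, adjusted p = 0.767), so a difference between niches did not pass the test. Stat5b had an unadjusted p under 0.05 in that test, as did 6.31% of all genes. Without WT vehicle 253 and 265 the value for Stat5a was 0.46. Averaged over both niches the treatment effect was -1.23 ± 0.39 for Stat5a and -0.82 ± 0.32 for Stat5b (edgeR, adjusted p = 0.251 and 0.268), and averaged over both treatments Stat5b was 0.74 ± 0.32 higher in KO hosts (edgeR, adjusted p = 0.444; unadjusted p under 0.05, as for 10.9% of all genes). Without WT vehicle 253 and 265 the Stat5a treatment effect was -0.68, and with the length trend removed the Stat5b niche effect was 0.13.

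**Figure D2:**
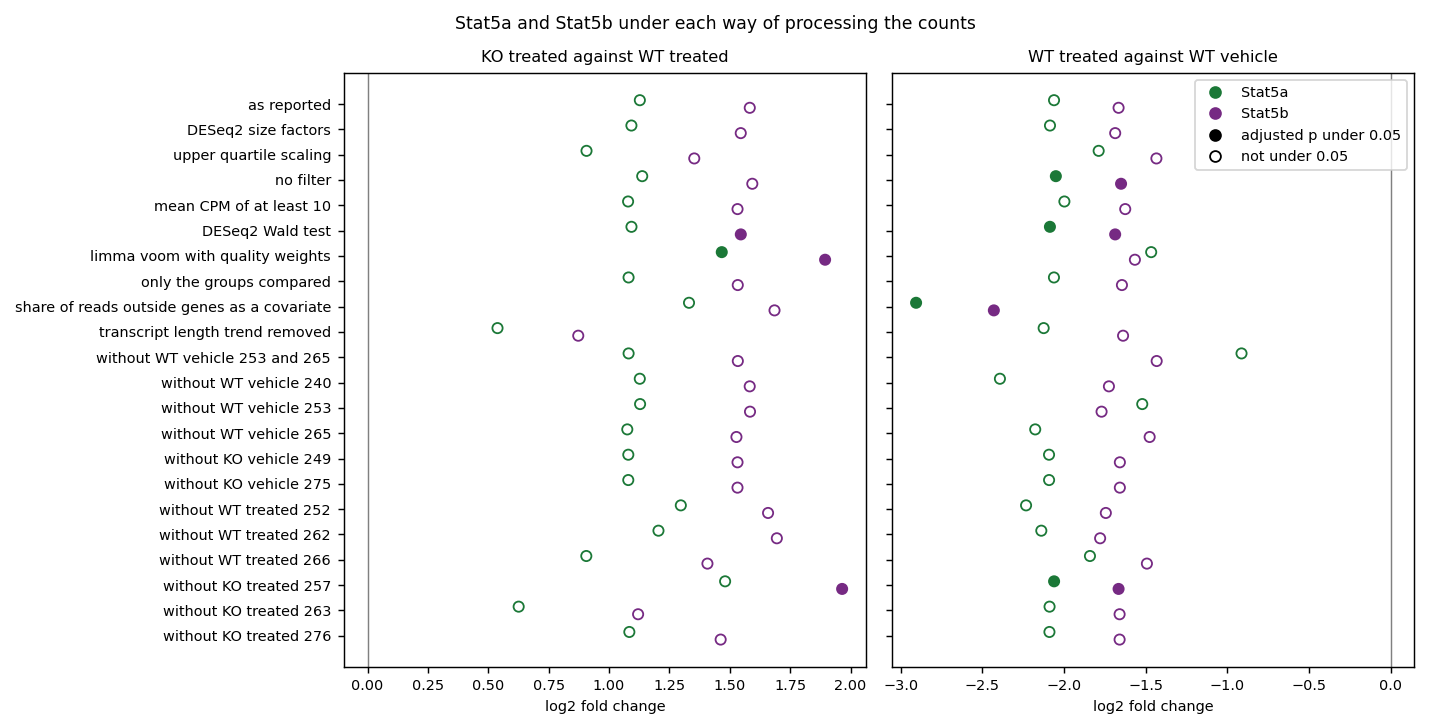
Log2 fold changes of Stat5a and Stat5b between treated KO and WT hosts (left) and between treated and vehicle WT hosts (right), one row for each way of processing the counts, with filled points where the adjusted p is under 0.05. Both genes kept their sign in each row, and the points range from 0.54 (Stat5a) to 1.97 (Stat5b) on the left and from -2.91 to -0.91 (both Stat5a) on the right.

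**Figure D3:**
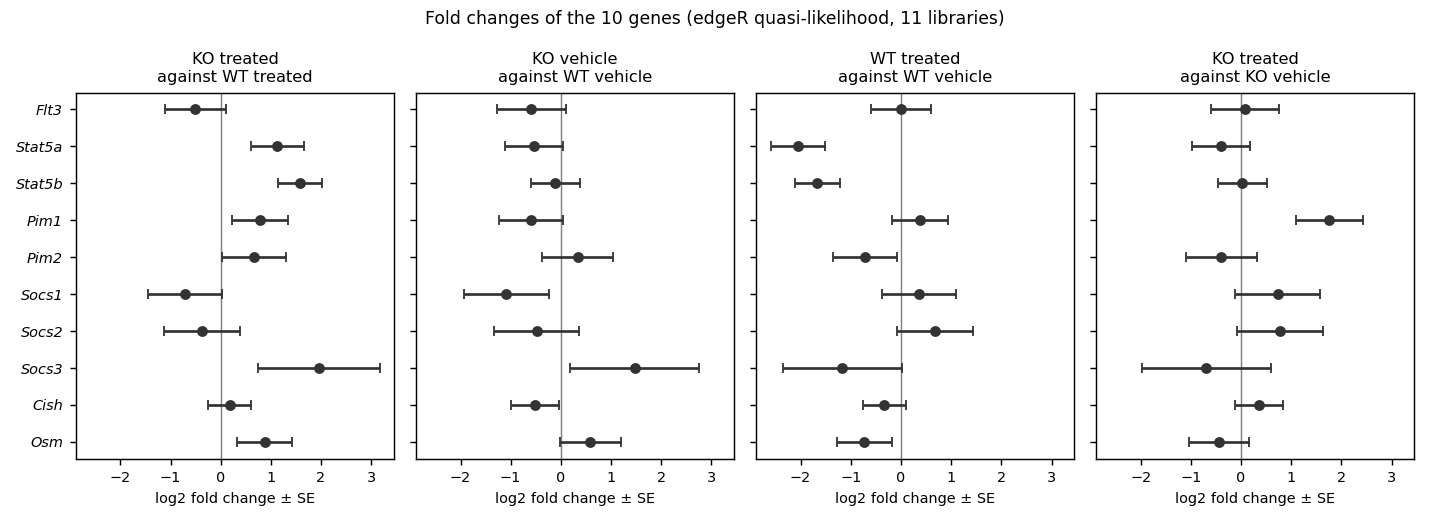
Log2 fold changes ± SE of the 10 genes in the 4 comparisons of a pair of groups, from edgeR on all 11 libraries. Stat5a and Stat5b lie to the right of 0 between treated hosts (1.13 and 1.58) and to the left in WT treated against WT vehicle hosts (-2.06 and -1.67), and Pim1 lies to the right in KO treated against KO vehicle hosts (1.76).

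Pim1 (ENSMUSG00000024014.9) and Pim2 (ENSMUSG00000031155.18) encode serine/threonine kinases that promote survival and are induced through STAT5. Pim1 was at 173, 81.5 and 48.2 CPM in KO treated libraries, against 29.6 and 29.95 CPM in KO vehicle libraries. All 3 treated libraries were above both vehicle libraries, and the difference was 1.76 ± 0.66 (edgeR, adjusted p = 1). Pim1 and Socs1 were the 2 of 10 genes that were higher without overlap there, against 12.3% of all genes. Only Pim1 had an unadjusted p under 0.05, which 3.68% of all genes had. WT hosts had 85.8, 41.5 and 48.5 CPM in treated libraries, against 77.0, 18.5 and 39.5 CPM in vehicle libraries, and these overlapped.

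Averaged over both niches, Pim1 was 1.07 ± 0.43 higher in treated libraries (edgeR, adjusted p = 0.271), a direction opposite to that of the STAT5 genes. These 3 genes had an unadjusted p under 0.05 for the mean treatment effect, against 16% of all genes. KO treated 257 had the highest Pim1 level, 173 CPM, and without it the KO treated difference from KO vehicle was 1.12 and that from WT treated 0.14, against 0.78 ± 0.56 (adjusted p = 0.670) with it. The difference of the treatment effects between niches was 1.38 ± 0.85 for Pim1 (adjusted p = 0.792), was 0.74 without WT vehicle 240 or without KO treated 257, and turned to -0.0539 once the fit held a covariate for reads outside genes.

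Pim2 showed no such pattern. It was at 79.4, 201 and 46.3 CPM in KO treated libraries, 62.9, 93.8 and 49.9 CPM in WT treated libraries, 214 and 71.9 CPM in KO vehicle libraries and 211, 50.9 and 78.1 CPM in WT vehicle libraries. All groups overlapped, and KO treated 263, KO vehicle 249 and WT vehicle 240 stood well above the rest of their groups. Pim2 differed by -0.72 ± 0.64 in WT treated against WT vehicle hosts (adjusted p = 0.584), by 0.66 ± 0.64 in KO against WT treated hosts (adjusted p = 0.789), by -0.56 ± 0.48 for the mean treatment effect (adjusted p = 0.588) and by 0.50 ± 0.48 for the mean niche effect (adjusted p = 0.701). The first of these was 0.0949 without WT vehicle 240, the second -0.105 without KO treated 263, the third -0.0571 without KO vehicle 249 and the last -0.0019 without KO vehicle 249. Pim1 counts were 2.17, 0.406 and 1.04 times Pim2 counts in KO treated libraries, 1.36, 0.442 and 0.971 times in WT treated libraries, 0.138 and 0.417 times in KO vehicle libraries and 0.365, 0.363 and 0.506 times in WT vehicle libraries. The lowest treated ratio, 0.406, lay within the vehicle range.

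The feedback inhibitors come next, the SOCS proteins and CISH, which bind receptors or JAK kinases and damp STAT signalling. Cish (ENSMUSG00000032578.8), the inhibitor most directly tied to STAT5, was the steadiest of the 10 genes. It was at 15.1, 31.6 and 26.3 CPM in KO treated libraries, 20.6, 26.7 and 17.3 CPM in WT treated libraries, 23.5 and 14.5 CPM in KO vehicle libraries and 32.8, 27.5 and 21.2 CPM in WT vehicle libraries. Its log2 CPM, with a small constant added to each CPM, had an SD of 0.394 over the 11 libraries, the lowest of the 10 genes. The SD was 1.20 for Socs2 and 1.57 for Socs3, which had a count of 0 in WT vehicle 265. All groups overlapped, and the mean treatment effect was smaller than its SE, with a 95% interval of -0.74 to 0.76. KO vehicle differed from WT vehicle by -0.51 ± 0.48 (adjusted p = 0.906), and the difference of the treatment effects between niches was 0.69 ± 0.64 (adjusted p = 0.852). Without KO vehicle 275 these were -0.18 and 0.31, and without KO vehicle 249 -0.89 and 1.02.

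Socs2 (ENSMUSG00000020027.19), best known as a brake on growth hormone signalling and also induced by STAT5, was the most abundant of the 10 per kilobase. It was at 357, 292 and 92.2 CPM in KO treated libraries, 293, 407 and 264 CPM in WT treated libraries, 212 and 76.1 CPM in KO vehicle libraries and 392, 28.1 and 185 CPM in WT vehicle libraries. The lowest value, 28.1 CPM, was that of WT vehicle 253, and each group overlapped the ones it was compared with. The mean treatment effect was 0.73 ± 0.57 (adjusted p = 0.555), 0.47 to 1.21 with each library left out in turn and 0.29 without WT vehicle 253 and 265. In no comparison of a pair of groups was the Socs2 difference larger than its SE.

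Socs3 (ENSMUSG00000053113.4) encodes a strong inhibitor of JAK kinases at the receptors of the IL-6 family and of G-CSF. Its level was 26.0 CPM or less in each library and lowest as a group in WT treated ones. It was at 7.91, 19.6 and 5.45 CPM in KO treated libraries, against 2.60, 3.34 and 2.53 CPM in WT treated libraries, with no overlap. Vehicle libraries had 26.0 and 9.41 CPM in KO hosts, against 8.27, 10.7 and 0 CPM in WT hosts. WT vehicle 265, the shallowest library, had no Socs3 count, which allows up to 0.369 CPM (3 counts, counting error only). KO libraries differed from WT libraries by 1.96 ± 1.21 in treated hosts (edgeR, adjusted p = 0.601). The difference was 1.48 ± 1.28 in vehicle hosts (edgeR, adjusted p = 0.891), where the libraries overlapped, and 1.72 ± 0.88 on average (edgeR, adjusted p = 0.495). Without KO vehicle 249, which had the most Socs3, the difference in vehicle hosts was 0.56. The mean treatment effect was -0.93 ± 0.87 (adjusted p = 0.623), was -0.50 without that library and was 0.41 with voom.

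Socs1 (ENSMUSG00000038037.6), which inhibits JAK kinases downstream of interferons and other cytokines, was the lowest per kilobase. It was at 11.03, 7.23 and 6.11 CPM in KO treated libraries, against 6.04 and 3.76 CPM in KO vehicle libraries. These groups did not overlap, but their nearest values differed by 0.0707 CPM and the difference was smaller than its SE. WT hosts had 17.5, 10.5 and 11.8 CPM in treated libraries, against 20.8, 7.76 and 2.59 CPM in vehicle libraries, which overlapped. KO hosts differed from WT hosts by -1.08 ± 0.85 with vehicle (adjusted p = 0.860) and by -0.90 ± 0.56 on average over both treatments (adjusted p = 0.560). Without WT vehicle 240, the WT vehicle library with the most Socs1, these differences were -0.0849 and -0.40.

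Osm (ENSMUSG00000058755.4) encodes oncostatin M, a secreted cytokine of the IL-6 family that STAT5 induces. It was at 6.85, 19.8 and 12.6 CPM in KO treated libraries and 8.72, 6.51 and 6.09 CPM in WT treated libraries. Vehicle libraries had 20.1 and 15.4 CPM in KO hosts, against 10.2, 13.3 and 11.9 CPM in WT hosts. All WT treated libraries were below all WT vehicle libraries, with a difference of -0.73 ± 0.55 (adjusted p = 0.498). Both KO vehicle libraries were above all WT vehicle libraries, where Osm was 1 gene of 10 higher without overlap, against 13.2% of all genes, and its fitted difference was smaller than its SE. No gene of the 10 had an unadjusted p under 0.05 between vehicle hosts, where 6.78% of all genes did. KO treated libraries differed from WT treated ones by 0.88 ± 0.55 (adjusted p = 0.610), the mean niche effect was 0.73 ± 0.41 (adjusted p = 0.521) and the mean treatment effect -0.59 ± 0.41 (adjusted p = 0.494). Between treated hosts the difference was 0.46 without KO treated 263, which had the most Osm of its group, and without WT vehicle 253 and 265 that of WT treated from WT vehicle libraries was -0.41.

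Levels can be compared between genes per kilobase of transcript. On that scale the means over the 11 libraries were 106 CPM per kb for Socs2, 94.7 for Pim2, 43.7 for Flt3, 22.7 for Pim1, 13.5 for Stat5a, 12.4 for Stat5b, 8.20 for Cish, 5.26 for Osm, 3.42 for Socs3 and 3.29 for Socs1. The medians put Stat5a (11.2) below Stat5b (14.2), and WT vehicle 253 had the highest Stat5a level. When the 4 groups of a gene were ordered by mean CPM, 3 pairs of neighbours did not overlap. They were KO vehicle over WT treated for Stat5b, KO treated over KO vehicle for Socs1 and WT vehicle over WT treated for Osm. Such pairs were not counted over all genes, so whether 3 is few or many is not known.

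Within a group, single libraries were the highest or lowest for several of the 10 genes. The same was not counted over all genes, so these counts are not a trait of the 10 genes. KO treated 263 was the highest of its group for 7 genes and 276 the lowest for 6. KO vehicle 249 was above 275 for 9 genes, all but Pim1, and WT treated 266 was the lowest of its group for 8. WT vehicle 240 was the highest of its group for 6 genes and 253 the lowest for 5. The 10 genes summed to 432 to 1067 CPM in KO treated, 546 to 833 CPM in WT treated, 419 to 853 CPM in KO vehicle and 438 to 1210 CPM in WT vehicle libraries, so the summed ranges of all groups overlapped.

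The direction of the 10 genes was mixed in each comparison but the interaction. Between treated hosts 7 of 10 fold changes were positive, with a median of 0.72, against a median of 0.10 over all genes, of which 53.9% were positive. In WT treated against WT vehicle hosts 7 were negative, with a median of -0.53, against 0.09 over all genes, of which 52.6% were positive. For the mean treatment effect 5 were positive and 5 negative, with a median of -0.27, against 0.16. The differences of the treatment effects between niches, KO minus WT, were positive for all 10 genes, with a median of 0.43, against 0.11 over all genes, of which 53.6% were positive. Only those of Stat5a, Stat5b, Pim1 and Cish were larger than their SE, none passed, and that of Pim1 changed sign with the covariate given above. Upper-quartile scaling moved the median of all genes to -0.06 between treated hosts and to 0.32 between WT treated and WT vehicle hosts.

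Other genes of the pathway were taken from lists, and none had an adjusted p under 0.05 in edgeR. The 4 JAK kinases, which phosphorylate STATs at cytokine receptors, were all higher in KO than in WT treated hosts (median 1.11) and all lower in WT treated than in WT vehicle hosts (median -1.02). With a covariate for reads outside genes these medians were 1.14 and -2.22, and with the length trend removed 0.40 and -1.002. Jak3, the kinase of the common gamma chain receptors, was at 15.9, 121 and 69.3 CPM in KO treated libraries, against 12.9, 12.3 and 11.05 CPM in WT treated libraries. It was above every WT treated library in each KO treated library, by 2.51 ± 0.61 (edgeR, adjusted p = 0.383; DESeq2, 0.00638). Vehicle libraries had 96.0 and 49.1 CPM of Jak3 in KO hosts, against 36.8, 39.5 and 66.4 CPM in WT hosts. Jak1 averaged 224 ± 85.3 CPM in KO treated, 110 ± 10.3 CPM in WT treated, 218 ± 2.33 CPM in KO vehicle and 222 ± 36.5 CPM in WT vehicle libraries.

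The other 5 STATs were all lower in WT treated than in WT vehicle hosts (median -0.85), and 4 of 5 were higher in KO than in WT treated hosts (median 0.50). Between treated hosts 3 of 5 were higher with the length trend removed (median 0.22) and 5 of 5 with the covariate for reads outside genes (0.48). With that covariate 4 of 5 were lower in WT treated than in WT vehicle hosts (median -1.50). Stat6, the STAT of IL-4 signalling, averaged 81.0 ± 48.4 CPM in KO treated, 33.6 ± 3.03 CPM in WT treated, 137 ± 13.1 CPM in KO vehicle and 123 ± 30.7 CPM in WT vehicle libraries, with a mean treatment effect of -1.32 ± 0.34 (edgeR, adjusted p = 0.251; DESeq2, 0.0255, where 2.76% of its genes passed). Stat3 averaged 120 ± 68.2 CPM in KO treated libraries, against 62.0 ± 5.67 CPM in WT treated libraries (0.96 ± 0.44, edgeR, adjusted p = 0.471). KO treated 257 had less Stat6 (26.0 CPM) and Stat3 (41.6 CPM) than every WT treated library, while 263 and 276 had more than each of them.

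The FLT3 ligand and the adaptors and enzymes that carry its signal were 20 genes. Of these, 14 were higher in KO than in WT treated hosts (median 0.83, or 0.24 with the length trend removed) and 17 were lower in WT treated than in WT vehicle hosts (median -0.73). Pik3cd, a PI3-kinase catalytic subunit of blood cells, was at 83.4, 188 and 168 CPM in KO treated libraries, against 67.2, 50.6 and 52.7 CPM in WT treated libraries. All KO treated libraries were above all WT treated ones, by 1.37 ± 0.34 (edgeR, adjusted p = 0.383; DESeq2, 0.0159). Plcg2, a phospholipase, differed by 1.17 ± 0.33 between them (edgeR, adjusted p = 0.383).

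Of the other receptors that use STAT5, 8 of 10 were higher in KO than in WT treated hosts (median 0.57) and 6 of 10 were lower in WT treated than in WT vehicle hosts (median -0.25). Epor, the erythropoietin receptor, was at 14.3, 9.55 and 57.4 CPM in KO treated libraries, against 0.773, 2.40 and 0.207 CPM in WT treated libraries, a difference of 4.58 ± 1.07 (edgeR, adjusted p = 0.383; DESeq2, 0.000149). The erythroid markers summed higher in the same KO treated libraries, as given below, and a relation to Epor was not tested. Kit differed by 2.12 ± 0.68 (edgeR, adjusted p = 0.406), with 20.5 CPM in KO treated 257, against 243 and 210 CPM in the other two. The G-CSF receptor gene Csf3r had a mean treatment effect of -1.51 ± 0.43 (edgeR, adjusted p = 0.251; DESeq2, 0.0410), and Csf2rb one of -0.62 ± 0.24 (edgeR, adjusted p = 0.260).

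The other 12 STAT5 targets showed no lean, with 6 higher and 6 lower between treated hosts (median -0.10, against 0.10 over all genes). Bcl2l1, which encodes the survival protein BCL-xL, was at 30.5, 60.3 and 154 CPM in KO treated libraries, against 14.7, 15.4 and 18.6 CPM in WT treated libraries, a difference of 2.33 ± 0.62 (edgeR, adjusted p = 0.383; DESeq2, 0.0179). Its highest value was in KO treated 276, which also had the highest sum of erythroid markers. A relation between them was not tested. The cyclin genes Ccnd2 and Ccnd3 had mean treatment effects of 0.94 ± 0.33 and -0.90 ± 0.35 (edgeR, adjusted p = 0.253 and 0.268), and Cdc25a differed by 0.56 ± 0.33 between treated hosts (edgeR, adjusted p = 0.587).

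All 5 paralogs (Pim3 and Socs4 to Socs7) were higher in KO than in WT treated hosts (median 0.64) and lower in WT treated than in WT vehicle hosts (median -0.73). In the second comparison 3 of 5 were lower without WT vehicle 265 (median -0.34), with the covariate for reads outside genes (-0.28) and with voom (-0.27). Between treated hosts 4 of 5 were higher with the length trend removed (median 0.26) and with voom (0.77). Pim3 differed by 0.64 ± 0.47 between treated hosts and had a mean treatment effect of -0.83 ± 0.35 (edgeR, adjusted p = 0.683 and 0.285), so its sign was opposite to that of Pim1 (1.07). Socs6 differed by 0.70 ± 0.60 between treated hosts and had a mean treatment effect of -0.74 ± 0.45. Of 8 phosphatases and PIAS proteins that restrain JAK-STAT signalling, 4 were higher and 4 lower in KO against WT treated hosts, as in WT treated against WT vehicle hosts, and 2 were higher and 6 lower for the mean treatment effect. The phosphatase gene Ptpn6 (SHP-1) had a mean treatment effect of -0.77 ± 0.23 and Pias1 one of -0.40 ± 0.25 (edgeR, adjusted p = 0.251 and 0.437), while Ptpn2 and Pias2 differed by -0.41 ± 0.26 and 0.72 ± 0.47 between treated hosts (edgeR, adjusted p = 0.621 and 0.631).

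Of 6 transcription factors that act on Flt3, 3 were higher and 3 lower between treated hosts (median 0.21). Spi1 (PU.1) was at 230, 165 and 179 CPM in KO treated libraries, against 358, 355 and 596 CPM in WT treated libraries. Every KO treated library was below every WT treated one, with a difference of -1.19 ± 0.33 (edgeR, adjusted p = 0.383). Between these groups 3205 of 16639 genes did not overlap, 1615 of them higher in KO treated libraries and the rest lower. Myb differed by 0.48 ± 0.34 between treated hosts (edgeR, adjusted p = 0.670). The mean treatment effects of Myb and Cebpa were -0.75 ± 0.26 and -0.90 ± 0.40 (edgeR, adjusted p = 0.253 and 0.299).

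**Figure D4:**
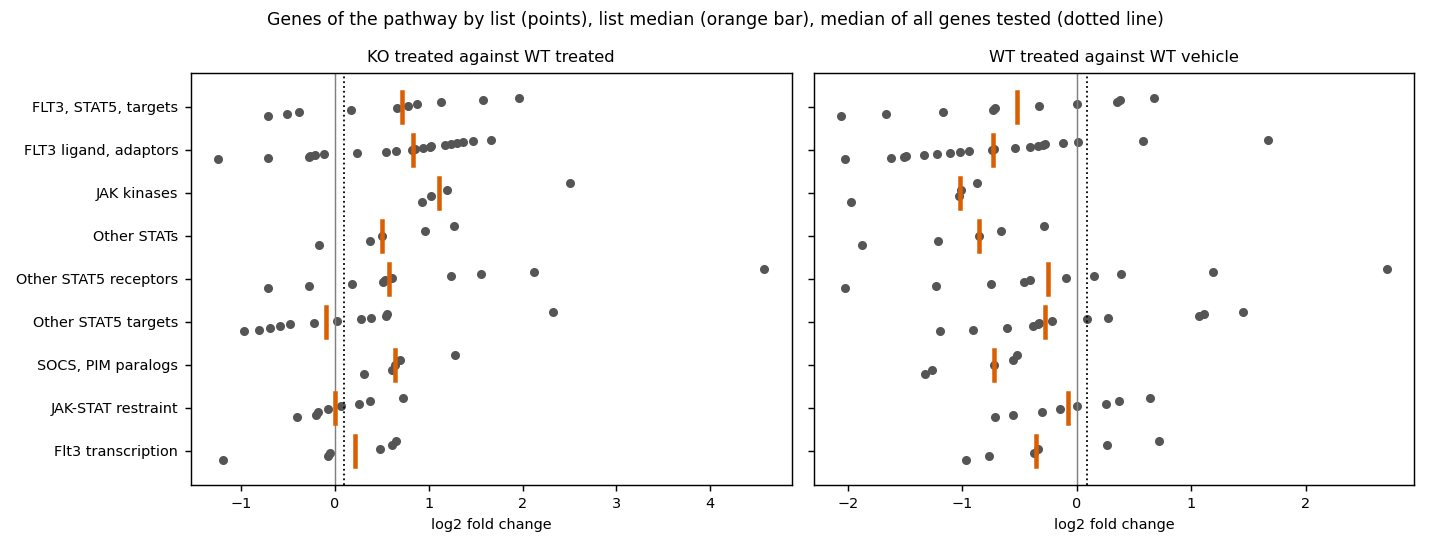
Log2 fold changes of the genes of each pathway list (points) with the list's median (orange bar) and the median of all genes tested (dotted line), between treated KO and WT hosts (left) and between treated and vehicle WT hosts (right). The 4 JAK kinases lie right of 0 on the left (median 1.11) and left of 0 on the right (median -1.02); both panels use the same WT treated libraries.

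The sorted libraries also held RNA of lineage marker genes, and the sums of some lists differed between groups. Between treated hosts the sums of erythroid, monocyte, and stroma and endothelium markers did not overlap, while those of granulocyte markers did. Between vehicle hosts the sums of each of these lists overlapped. The 14 erythroid markers found of 15 summed to 22610 to 109639 CPM in KO treated, 263 to 657 CPM in WT treated, 368 to 17736 CPM in KO vehicle and 64.0 to 1137 CPM in WT vehicle libraries. All 15 granulocyte markers were found, with sums of 10961 to 35178, 31237 to 154885, 39066 to 62324 and 37244 to 95841 CPM in the same order of groups. The 10 monocyte markers summed to 2555 to 5440 CPM in KO treated, 7261 to 18911 CPM in WT treated, 3464 to 10368 CPM in KO vehicle and 5245 to 12190 CPM in WT vehicle libraries. Stroma and endothelium markers (10 of 10) summed to 89.3 to 205 CPM in KO treated, 63.9 to 74.4 CPM in WT treated, 113 to 177 CPM in KO vehicle and 115 to 166 CPM in WT vehicle libraries. The part of cells of these lineages in the values of the 10 genes, or of the other genes named, was not tested.

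The remaining lists were those of B cells, T and NK cells, megakaryocytes, and mast cells and basophils. In WT treated against WT vehicle hosts, all 9 B cell and all 10 T and NK cell markers tested were higher (medians 4.08 and 5.48, against 0.09 over all genes). None had an adjusted p under 0.05 in edgeR, and 4 and 5 of the listed markers were at 0 in every WT vehicle library. B cell markers (10 of 10) summed to 40.6 to 69.0 CPM in KO treated, 75.3 to 160 CPM in WT treated, 29.8 to 42.6 CPM in KO vehicle and 52.3 to 60.5 CPM in WT vehicle libraries, with Ms4a1 and Rag1 at 0 in all vehicle libraries. T and NK cell markers (10 of 10) summed to 300 to 1227 CPM in KO treated, 991 to 1707 CPM in WT treated, 834 to 845 CPM in KO vehicle and 450 to 705 CPM in WT vehicle libraries, and Ncr1 was at 0 in all vehicle libraries. Megakaryocyte markers (10 of 10) reached 664 CPM in KO vehicle 275 and stayed between 5.54 and 97.8 CPM elsewhere, and mast cell and basophil markers (8 of 8) summed to 26.9 to 216 CPM.

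**Figure D5:**
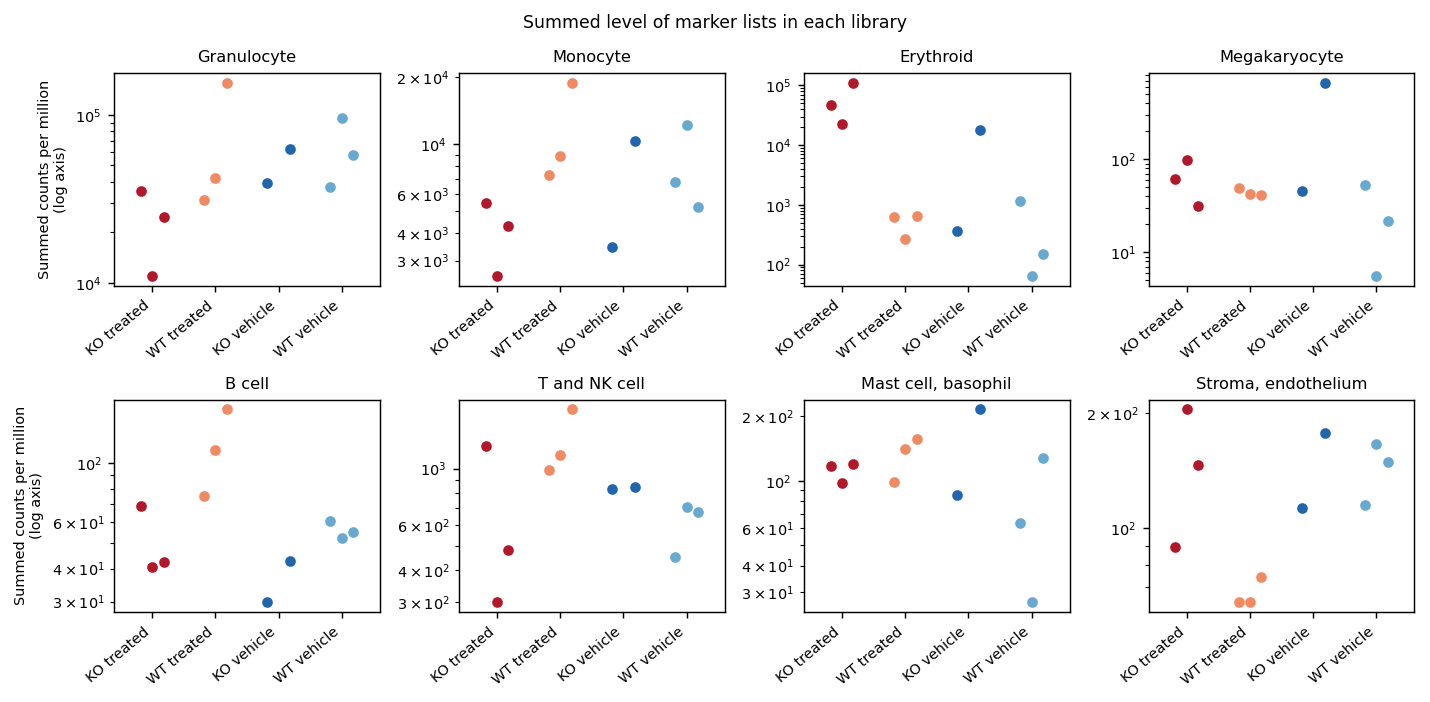
Summed CPM of 8 lists of lineage markers in each library, on a log axis, by group. Erythroid markers reach 22610 to 109639 CPM in KO treated libraries, against 263 to 657 CPM in WT treated libraries, and granulocyte and monocyte markers are highest in WT treated 266.

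The genes whose levels were most like those of Flt3 over the 11 libraries, among 8093 genes ranked, were Dusp2, Sept6, Ccdc166, Mef2c and Plekha5. Pearson's r of log2 CPM was 0.863, 0.857, 0.804, 0.798 and 0.785, and Spearman's rho 0.818, 0.791, 0.682, 0.764 and 0.691. Without 240 and 276, the libraries farthest from the median of Flt3, r was 0.753, 0.749, 0.670, 0.739 and 0.624. For Cish the most alike were Ctso, Wdr75, Wdsub1, Reps1 and Klhl24, with r of 0.868, 0.822, 0.812, 0.806 and 0.776 and rho of 0.836, 0.700, 0.855, 0.882 and 0.700. Without 275 and 257 these r were 0.792, 0.741, 0.526, 0.844 and 0.759. No gene among the 10 was on either list, and the points share depth and the make-up of the sorted cells.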

How the data were processed

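The submitters' processing notes name build GRCm39 and, with no roles, STAR 2.7.9a, HTSeq 0.6.7 as listed there, DESeq2, Trim Galore 0.6.7 and bcl2fastq. Per the labels' protocols, Nextera XT libraries were built from RNA amplified by SMARTer Ultra Low Input. These kits do not mark strand, and reads of a gene and its antisense partner cannot be told apart. The deposited values are raw counts per gene, not normalized, and 5 HTSeq summary lines were left out. Symbols and transcript lengths came from GENCODE M21, of an earlier build, so gene coordinates are not given, and the RefSeq windows are on GRCm38.p6.

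One model of the 4 groups was fitted in R 4.3.3 with edgeR 4.0.16 (TMM, filterByExpr, robust quasi-likelihood), with Benjamini-Hochberg adjustment over 16639 genes and calls under 0.05. SE is the absolute log2 fold change over the square root of F, and 95% intervals use 7 residual degrees of freedom. CPM per kb uses the longest principal transcript. DESeq2 1.42.0, limma 3.58.1 voom with quality weights, other scalings and filters, only the groups compared, a covariate for reads outside genes (5.98% to 30.4% of reads), removal of the length trend (lowess, span 0.3), no 253 and 265, and leaving out each library were alternatives. The code was tested on simulated counts. The highest correlation between a pair of libraries was 0.964, and none was a duplicate.

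The 10 genes and all lists were chosen with earlier results of these data known. Besides the 10, the text names the 2 genes of each list with the smallest p for the mean treatment effect and for KO against WT treated hosts, and the 5 genes most like Flt3 and Cish. One gene that this rule names is not reported here. Jak3, Epor and Bcl2l1 values per library were chosen for print after they were seen, as were the sites in Cish and Socs3.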

Additional observations from a re-analysis of the deposited data

How the results depend on the processing

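Of 32 fold changes of the 10 genes given above, 26 kept their sign under every alternative run and 6 did not. The mean treatment effect of Socs3 was 0.41 with voom, the Pim1 interaction was -0.0539 with the covariate for reads outside genes, and the mean treatment effect of Flt3 was -0.37 without WT vehicle 253 and 265. Leaving out each library in turn, that of Flt3 ranged from -0.23 to 0.42. For Pim2, WT treated against WT vehicle ranged from -1.07 to 0.0949, KO against WT treated from -0.105 to 0.96 and the mean niche effect from -0.0019 to 0.90. The cause was not tested. Of the 10 genes, edgeR called 0 in each comparison. With no filter it called 2 in WT treated against WT vehicle hosts (Stat5a and Stat5b), against 215 of 28001 genes tested. DESeq2 called 1 between treated hosts and 2 in WT treated against WT vehicle hosts, against 2.46% and 7.25% of the genes it tested. With voom 4 were called between treated hosts, against 26.3% of all genes. The covariate gave 2 in WT treated against WT vehicle hosts and 3 for the mean treatment effect (Stat5a, Stat5b and Pim1). Of all 16639 genes, it gave 2100 and 1517 in these comparisons. Left-out libraries gave 0 to 1 between treated hosts, 0 to 2 in WT treated against WT vehicle hosts and 0 to 1 for the mean niche effect. All these calls came without KO treated 257, where 1513, 1012 and 1000 of 16341 genes tested were called in the same comparisons. Over all genes, edgeR called 0 in each comparison, against 226, 206, 1069, 23, 58, 425 and 371 with DESeq2 and 4375, 0, 0, 0, 0, 1 and 545 with voom. Listed are the niche comparison in treated hosts, then in vehicle hosts, the treatment comparison for WT, then for KO, the interaction and the mean treatment and niche effects. With no filter edgeR called 43 between treated hosts, 11 between vehicle hosts, 215 in WT treated against WT vehicle hosts, 7 for the mean treatment effect and 83 for the mean niche effect, and with a mean CPM of at least 10 it called 2 for the last. The covariate gave 2100 in WT treated against WT vehicle hosts and 1517 for the mean treatment effect. Without KO treated 257 there were 1513 between treated hosts, 1012 in WT treated against WT vehicle hosts and 1000 for the mean niche effect. Without WT vehicle 240 there were 85 between vehicle hosts, 190 in WT treated against WT vehicle hosts, 1 for the interaction and 108 for the mean niche effect, and without KO vehicle 249 there were 23 for the last. List medians were run under the same alternatives after the data were seen. Adaptors in WT treated against WT vehicle hosts moved to -1.13, JAK kinases to -2.22 and other STATs to -1.50 with the covariate, and adaptors between treated hosts to 0.24 with the length trend removed. A mean CPM of at least 10 left Socs1 and Socs3 untested. No paired analysis was possible because the library numbers differ between all groups.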
